A study of Homo sapiens with 60 samples.

Results

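The genes described here make cholesterol and fatty acids under the control of the sterol regulatory element-binding proteins, SREBPs. They were named as a list of 41 genes and looked up by symbol on the array. Each gene was read from its probe set with the highest mean over all arrays, where that probe set named 1 gene. Of the 41, 36 had such a probe set, out of 19775 genes in the whole data set. CYP51A1, FADS1 and ELOVL1 were only on probe sets shared with another symbol, and FDFT1 and ACSL3 were not analysed here. RNA levels came from 60 Affymetrix U133 Plus version 2 arrays, as log2 values. HB4a are normal epithelial cells of the breast, C5.2 (also labelled C5.2a) is HB4a that received a full-length cDNA of the receptor HER-2, and SKBR3 is a mammary adenocarcinoma line that overexpresses HER-2 constitutively. Each line was given vehicle (DMSO), 30 nM of doxorubicin, 20 nM of rapamycin, or the pair at these doses, called combined below. This gave 12 groups of 5 arrays, from independent experiments numbered 1, 2, 3, 4 and 6. The labels give no treatment time, no age or passage of the cultures, no promoter for the HER-2 cDNA, and do not say whether C5.2 is 1 clone. Insulin and hydrocortisone were in the medium of HB4a and C5.2, and the medium text does not name them for SKBR3, so line and medium cannot be told apart.

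SREBPs are transcription factors made as membrane proteins of the endoplasmic reticulum. When sterols are scarce, SCAP escorts them to the Golgi, where proteases release the active part; when sterols are plentiful, INSIG proteins hold SCAP back. SREBP-2, from SREBF2, is known mainly for cholesterol synthesis genes, and SREBP-1, from SREBF1, for fatty acid synthesis genes. The kinase complex mTORC1, which rapamycin inhibits, is known to promote SREBP activity in many cell types, and breast cancers that overexpress HER-2 are known for high fatty acid synthase. Doxorubicin, an anthracycline, poisons topoisomerase II. Sterol-bound liver X receptors switch on the sterol exporters ABCA1 and ABCG1 and also MYLIP, and these 3 were in the list.

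SREBPs are known to bind sterol regulatory elements in promoters, often next to a CCAAT box bound by the factor NF-Y. Promoter windows from RefSeq (build GRCh38.p14, 250 bases before to 50 bases after an annotated gene start) were found for 36 of the 41 genes, 53 windows in all. Both strands were searched for the element spelled TCACNCCAC, for a looser spelling TCACNCNAC chosen after these windows had been read, and for CCAAT and GGGCGG. TCACNCCAC was in 2 of the 53 windows (3.77%) and in 1.13% of all 35116 windows. TCACNCNAC, which includes every match of the first, was in 6 (11.3%, against 2.55% of all), those of FDPS, HSD17B7, FADS2, ACSS2, SREBF2 and ACSL1. CCAAT was in 31 windows (58.5%, against 34.6% of all), and GGGCGG in 43 (81.1%, against 44.95% of all). A match is a run of letters, not a measured binding site, and nothing follows from its absence. The windows of 4 genes are shown. FDPS and HSD17B7 fell in several comparisons with rapamycin and hold the looser element. DHCR7 and ACLY fell at least as often, and their windows lack it. No window was found for FDFT1, SQLE, ACAT2, FASN and ABCG1. SCD changed in the most comparisons and holds only CCAAT of the letters marked, and SREBF2 encodes SREBP-2. A link between the element and a fall was not tested. Capitals mark TCACNCNAC and CCAAT on either strand, so that ATTGG is CCAAT read on the opposite strand. In FDPS the looser element began 140 bases before the start, in HSD17B7 98 bases and in SREBF2 133 bases.
FDPS promoter, chr1:155308616-155308915, plus strand: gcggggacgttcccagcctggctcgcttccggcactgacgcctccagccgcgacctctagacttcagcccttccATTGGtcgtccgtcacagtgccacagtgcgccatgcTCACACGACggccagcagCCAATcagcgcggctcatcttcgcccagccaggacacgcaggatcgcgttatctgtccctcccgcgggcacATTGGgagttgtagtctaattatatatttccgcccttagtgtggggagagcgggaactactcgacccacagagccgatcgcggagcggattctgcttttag
HSD17B7 promoter, chr1:162790452-162790751, plus strand: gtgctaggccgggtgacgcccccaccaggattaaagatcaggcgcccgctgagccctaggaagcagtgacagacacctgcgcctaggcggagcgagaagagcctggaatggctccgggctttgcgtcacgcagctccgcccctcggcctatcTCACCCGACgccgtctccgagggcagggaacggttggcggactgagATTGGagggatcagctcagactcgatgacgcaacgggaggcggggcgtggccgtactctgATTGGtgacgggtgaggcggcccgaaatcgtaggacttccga
SCD promoter, chr10:100346983-100347282, plus strand: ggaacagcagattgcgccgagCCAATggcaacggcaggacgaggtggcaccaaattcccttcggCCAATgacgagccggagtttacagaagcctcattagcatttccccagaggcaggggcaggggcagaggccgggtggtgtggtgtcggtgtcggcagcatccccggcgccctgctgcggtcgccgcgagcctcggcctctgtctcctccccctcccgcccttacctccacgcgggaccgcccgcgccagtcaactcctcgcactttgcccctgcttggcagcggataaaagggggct
SREBF2 promoter, chr22:41832855-41833154, plus strand: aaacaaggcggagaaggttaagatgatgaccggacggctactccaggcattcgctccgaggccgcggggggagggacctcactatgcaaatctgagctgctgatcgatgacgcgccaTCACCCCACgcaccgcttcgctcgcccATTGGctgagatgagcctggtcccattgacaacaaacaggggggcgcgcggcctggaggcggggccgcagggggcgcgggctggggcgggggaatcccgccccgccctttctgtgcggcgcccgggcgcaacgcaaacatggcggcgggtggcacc

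Genes entered a fit if 5 or more of its arrays read above 5 in log2 units, and they rose or fell where limma's adjusted p over all genes tested was under 0.05. Differences are between group means, in log2 units, ± the fit's standard error, with n = 5 arrays per group, and levels are means ± SD. In HB4a 23 of the 36 genes were tested, in C5.2 21 and in SKBR3 27, and 20 genes in all 3 lines. HMGCS1, MVD, SC5D, SREBF2, STARD4, ACACB, FADS2 and ABCA1 were tested in no line. Array medians lay between 1.41 and 1.71, and nothing in the labels names batches or scan dates. Epithelial keratins KRT8 and KRT18 were high in each line (8.03 or more in every group mean). Of 3 leukocyte, 3 endothelial and 3 adipocyte markers, only CIDEC in C5.2 had group means near 5 (4.73 to 5.33). The summed means of the 3 markers ran from 2.53 to 3.67 for leukocyte, 5.00 to 8.74 for endothelial and 3.89 to 7.91 for adipocyte genes. ERBB2, which encodes HER-2, averaged 6.67 ± 0.23 in HB4a, 12.06 ± 0.25 in C5.2 and 11.48 ± 0.35 in SKBR3 under vehicle. SKBR3 vehicle array 3 stood apart in genes that are high in HB4a and C5.2: LGALS3 was 6.61, NNMT 6.22 and SPARC 3.46 there, against at most 1.58, 0.92 and 0.54 on the other SKBR3 vehicle arrays. Without it, 3 of the calls below were lost: INSIG1 in SKBR3 with rapamycin (-0.74, adjusted p = 0.0523), DHCR7 in SKBR3 with both drugs (-0.36, adjusted p = 0.0633) and the IDI1 response of SKBR3 minus C5.2 to both drugs (-0.68, adjusted p = 0.0641). An alternative left out together the arrays numbered 1 in HB4a and SKBR3, those numbered 2 in C5.2, and HB4a rapamycin array 4, a choice taken from earlier work on these data. They hold the arrays farthest from their group means in HB4a (rapamycin array 1, root mean square residual 0.504) and C5.2 (combined array 2, 0.493) but not in SKBR3 (combined array 4, 0.365). Without them ACAT2 and FASN in HB4a with rapamycin, MSMO1 in C5.2 with both drugs, SQLE and INSIG1 in SKBR3 with rapamycin and FDPS and ELOVL6 in SKBR3 with both drugs lost their calls (adjusted p from 0.0529 to 0.101), in the same direction. So did FASN in HB4a (0.0582) and HSD17B7 (0.0612) and ELOVL6 (0.0522) in SKBR3 for combined against doxorubicin, and the MYLIP rapamycin response of SKBR3 minus HB4a (0.0753). The basal keratin KRT5 and the luminal keratin KRT19 had lower means with treatment in HB4a and C5.2: KRT5 averaged 10.07 under vehicle and 8.48 with both drugs in HB4a, 7.01 and 5.06 in C5.2, and KRT19 10.47 and 9.33, 7.84 and 5.97. KRT14, the other basal keratin measured, had every group mean below the lowest array median (1.41), so no change in it can be read. KRT17 was not measured here. EPCAM, a luminal marker, had group means of 8.07 to 8.67 in HB4a and 5.87 to 6.34 in C5.2. The part of these markers in the results was not tested. In arrays of whole cultures, fewer cells of a type and less RNA per cell cannot be told apart.

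Under vehicle, FASN, SCD, ELOVL6 and SREBF1 of the fatty acid branch were higher in SKBR3 than in both other lines, and ACACA was lower. In C5.2, FASN and SCD were lower than in HB4a, and ELOVL5 was higher. Genes of the cholesterol branch also lay higher or lower from step to step. Against HB4a, 20 of 28 tested genes differed in SKBR3, 14 higher and 6 lower, where 77.3% of all genes were called. Against C5.2, 23 of 27 differed, 16 higher and 7 lower, with 78.8% of all genes called. C5.2 differed from HB4a in 12 of 24, 5 higher and 7 lower, with 49.2% of all genes called. The shares of members called were near those of all genes. The median difference of the members was 0.39 for SKBR3 minus HB4a, 0.43 for SKBR3 minus C5.2 and -0.17 for C5.2 minus HB4a, beside -0.02, -0.09 and 0.10 over all genes tested. Some genes passed the filter only through the line where they are high, which favours a difference. These were SREBF1, ELOVL6, MYLIP and ABCG1 through SKBR3 in both fits with it, and FASN and ACSS2 through SKBR3 against C5.2. INSIG1 passed through C5.2 or SKBR3 against HB4a, and FASN and ACSS2 through HB4a in the fit of C5.2 with HB4a. TM7SF2 passed through HB4a arrays with doxorubicin, alone or combined, against either line. In vehicle, TM7SF2 between SKBR3 and HB4a and ACSS2 between C5.2 and HB4a were not called. The differences of the genes that passed in these ways are given as a description. With experiment number as the block, ACSS2, ACAT2 and LSS were also lower in C5.2 than in HB4a (58.2% of all genes called).

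Of the genes of fatty acid synthesis in vehicle, FASN, which builds palmitate, averaged 5.24 ± 0.33 in HB4a, 4.77 ± 0.35 in C5.2 and 7.90 ± 0.56 in SKBR3, a difference of 2.65 ± 0.26 for SKBR3 minus HB4a (adjusted p = 1.09e-11). The desaturase SCD was higher in SKBR3 by 1.98 ± 0.19 than in HB4a and by 2.57 ± 0.17 than in C5.2. C5.2 minus HB4a was -0.59 for SCD (adjusted p = 0.00567), a call lost with the mean of all probe sets. It was -0.48 for FASN (adjusted p = 0.0127), which passed that filter through HB4a. The FASN call was lost without HB4a vehicle array 2 or C5.2 vehicle array 1, and with all 60 arrays in 1 fit. For ELOVL5 it was 0.85 (adjusted p = 0.0108). The elongase ELOVL6 averaged 6.08 ± 0.59 in SKBR3, 3.98 ± 0.51 in C5.2 and 3.06 ± 0.50 in HB4a. SREBF1 averaged 8.27 ± 0.56 in SKBR3, 4.20 ± 0.31 in C5.2 and 3.95 ± 0.15 in HB4a. ACLY, which makes cytosolic acetyl-CoA from citrate, was 1.23 ± 0.08 higher in SKBR3 than in HB4a, and ACSS2, which makes it from acetate, 0.91 ± 0.14. ACACA, the carboxylase that makes malonyl-CoA, differed by -0.44 ± 0.14 from HB4a and -0.44 ± 0.14 from C5.2. These 2 ACACA calls were lost when arrays were centred on their medians. The elongase ELOVL5 was called against neither line (SKBR3 minus HB4a 0.32 ± 0.18, SKBR3 minus C5.2 -0.53 ± 0.26), and ACACB and FADS2 were under the filter. With no filter FADS2 in SKBR3 differed by -1.35 ± 0.14 from HB4a and by -2.15 ± 0.17 from C5.2.

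Along the cholesterol branch in vehicle, the order of the lines differed between genes. ACAT2, the thiolase that opens the pathway, was lower in SKBR3 by 2.04 ± 0.16 than in HB4a and by 1.80 ± 0.15 than in C5.2. IDI1, which isomerises the first isoprenoid unit, was higher in SKBR3 by 2.00 ± 0.21 and 1.54 ± 0.16. The squalene epoxidase SQLE was higher in SKBR3 by 0.57 ± 0.13 and 0.75 ± 0.13, whereas LSS, which closes the sterol rings, was lower by 1.04 ± 0.19 and 0.74 ± 0.15. DHCR7, which completes cholesterol, averaged 7.30 ± 0.23 in SKBR3, 6.69 ± 0.34 in HB4a and 5.37 ± 0.32 in C5.2, and all 3 differences were called. The sterol isomerase EBP, the dehydrogenase NSDHL and the reductase HSD17B7 were lower in SKBR3 than in both other lines, EBP by 0.87 ± 0.13 and 0.47 ± 0.13. The NSDHL call against HB4a was lost when arrays were centred on their medians. FDPS, which makes farnesyl diphosphate, differed in no pair of lines (8.63, 8.48 and 8.66; largest difference 0.18 ± 0.09, adjusted p = 0.0857). Of the regulators, INSIG1 was higher than in HB4a by 1.34 ± 0.23 in C5.2 and by 1.43 ± 0.21 in SKBR3, having passed the filter through those lines, and SCAP was highest in C5.2 (7.36 ± 0.14, against 6.48 ± 0.18 in HB4a and 6.21 ± 0.50 in SKBR3). ABCG1, an exporter of sterols, averaged 5.85 ± 0.22 in SKBR3 and lay below the array medians in the other lines, at least 4.18 and 4.23 higher than HB4a and C5.2, bounds taken from the array medians.

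**Figure D1:**
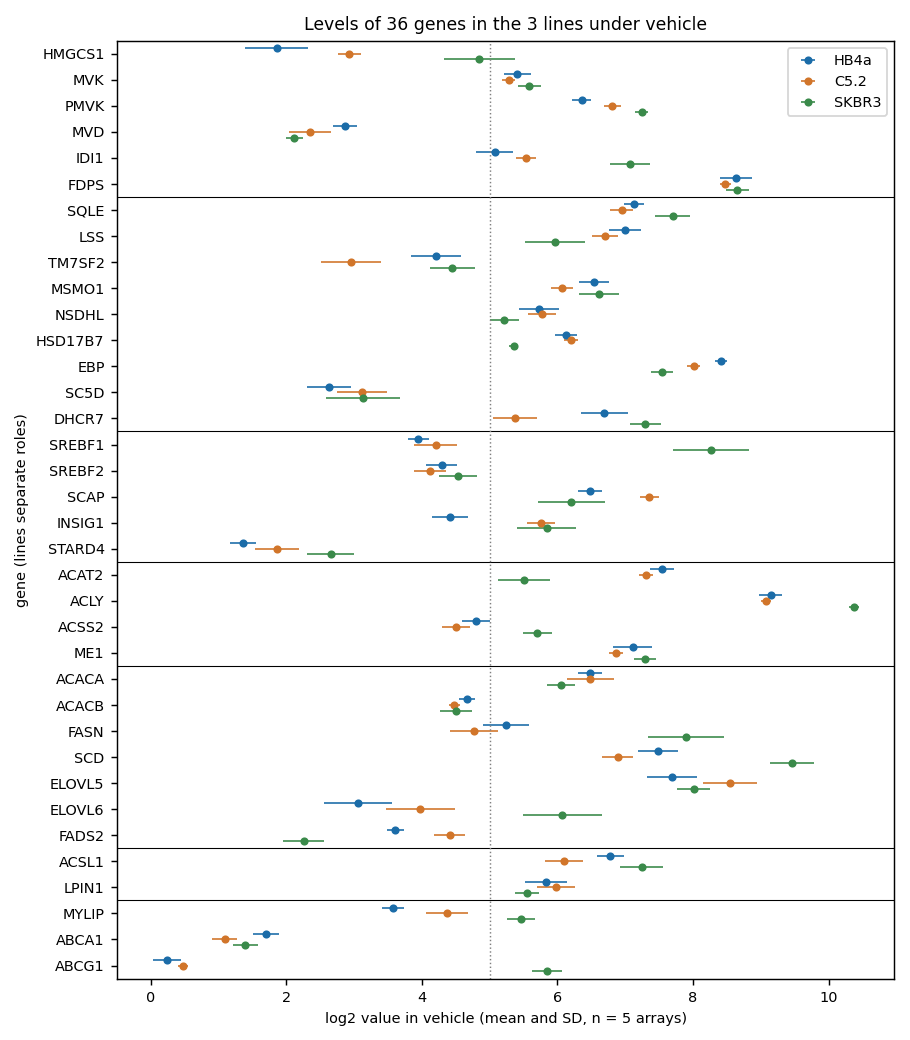
Level of each of the 36 genes in vehicle, as the mean log2 value (horizontal axis) with the SD over 5 arrays, coloured by line. The dotted line is the filter at 5, and horizontal lines separate the roles. SREBF1, FASN, SCD and ELOVL6 sit far to the right in SKBR3, while ACAT2 sits to the left of the other lines. Levels of different genes come from different probe sets and are not comparable.

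With treatment, the genes that were called mostly fell, and most calls came from groups that received rapamycin. ACAT2, DHCR7 and SQLE fell in all 3 lines with rapamycin or with both drugs, and SCD, FDPS, HSD17B7, ACLY and ACACA in 2 lines. Over the 9 treatments against vehicle there were 56 calls in 20 genes, 51 lower and 5 higher. With rapamycin alone 0 genes rose and 3 of 23 fell in HB4a (all genes called: 3.18%), 0 rose and 8 of 21 fell in C5.2 (17.4%), and 1 rose and 9 of 27 fell in SKBR3 (18.3%). With both drugs 1 rose and 6 fell in HB4a (17.4%), 0 rose and 9 fell in C5.2 (21%), and 1 rose and 12 fell in SKBR3 (22%). With doxorubicin alone 2 rose and 3 fell in HB4a (11.4%), 0 rose and 1 fell in C5.2 (3.26%), and 0 changed in SKBR3 (0.837%), where limma gave 1 at an unadjusted p under 0.05. The share of all genes that fell was 1.1%, 14.6% and 10.8% with rapamycin and 6.49%, 14.6% and 13.6% with both drugs, in HB4a, C5.2 and SKBR3. The median difference of the tested members with rapamycin was -0.18, -0.25 and -0.20, beside 0.01, -0.08 and -0.03 over all genes, and with both drugs -0.17, -0.30 and -0.28, beside 0.05, -0.06 and -0.06. These comparisons share their vehicle arrays within a line. TM7SF2 in HB4a, FASN in HB4a, DHCR7 in C5.2 and HSD17B7 and ACAT2 in SKBR3 had at least 1 group with no array above 5, so they passed the filter through the groups where they were high.

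Arrays with the same experiment number were paired in some comparisons (every pair's residuals correlated above 0.1). With that number as a block, NSDHL was added as higher in HB4a with doxorubicin (32.7% of all genes called). The count in HB4a with rapamycin went from 3 to 8, all lower (all genes called: 16.3%), by adding EBP, DHCR7, SQLE, ACSL1 and LSS. In C5.2 with doxorubicin it went from 1 to 5 (17.4%), by adding SQLE, INSIG1 and ELOVL5 as lower and HSD17B7 as higher, and in SKBR3 with doxorubicin from 0 to 2 (5%), SREBF1 lower and MYLIP higher. In C5.2 with rapamycin the block added PMVK, EBP and SQLE as lower and LPIN1 as higher (44.2% of all genes called), and in SKBR3 with rapamycin ELOVL6, ME1, NSDHL and ACSL1 as lower (41.8%). In SKBR3 with both drugs it added SCD, FASN, ACSL1, MSMO1 and ELOVL5 as lower and SCAP as higher (50.5%). Statements below that a gene was not called are for the fit without the block. Leaving out 1 array moved 3 of the counts with single drugs by over 1.5 times: 3 in HB4a with doxorubicin without doxorubicin array 4, 1 in HB4a with rapamycin without vehicle array 2, and 0 in C5.2 with doxorubicin on leaving out any 1 of vehicle arrays 2, 3, 4 and 6 and doxorubicin arrays 1, 3 and 4, but 2 without doxorubicin array 2.

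**Figure D2:**
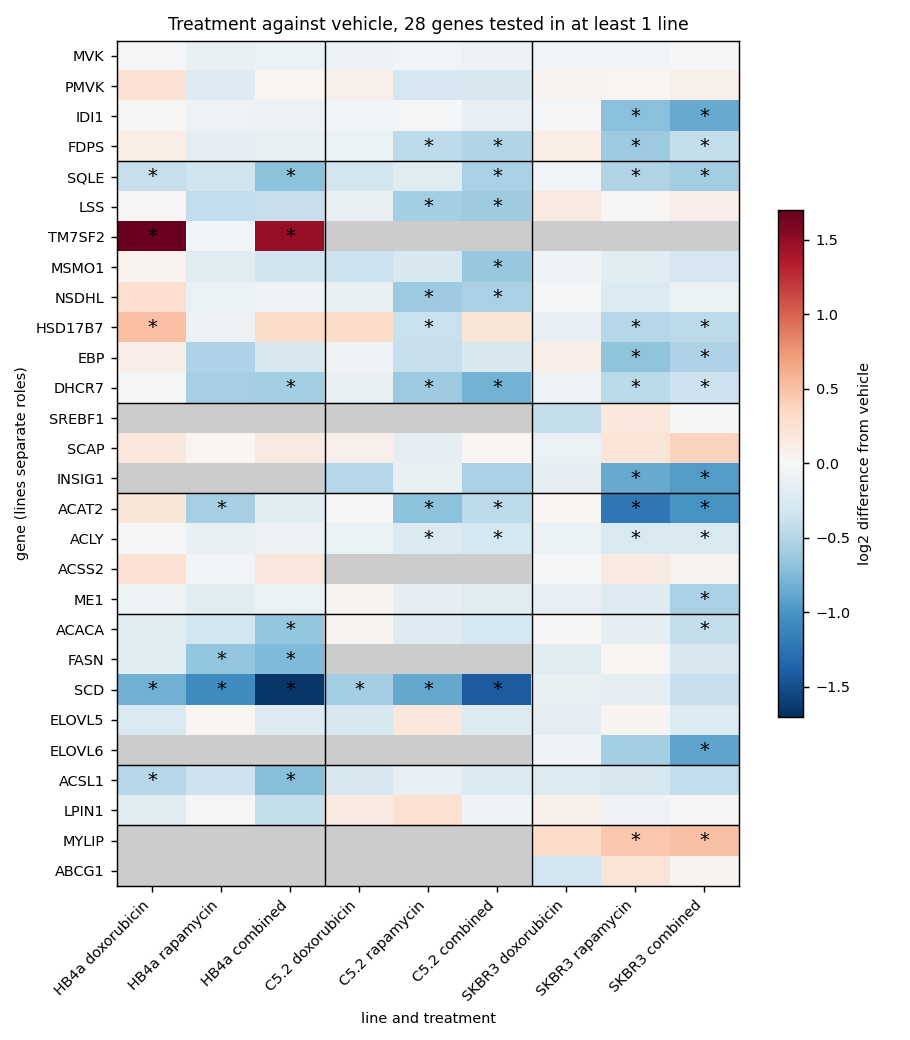
Difference from vehicle in log2 units (colour, red higher and blue lower) for the 28 genes tested in at least 1 line, in 9 columns of line and treatment. Stars mark adjusted p under 0.05 and grey marks genes not tested in that line. The starred cells are blue except for TM7SF2 and HSD17B7 in HB4a and MYLIP in SKBR3; SCD is starred in all HB4a and C5.2 columns and in no SKBR3 column.

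Of the genes that supply acetyl-CoA and NADPH, ACAT2 fell with rapamycin in each line, and ACLY in C5.2 and SKBR3. In HB4a, ACAT2 read 7.42, 7.75, 7.32, 7.58 and 7.68 in vehicle and 6.61, 7.27, 6.89, 6.92 and 7.26 with rapamycin, in the order of experiments 1, 2, 3, 4 and 6, which is kept below. With doxorubicin it read 7.62, 7.92, 7.52, 7.83 and 7.85, and with both drugs 7.15, 7.16, 7.57, 7.48 and 7.52. Every rapamycin array lay below every vehicle array, a fall of 0.56 ± 0.13 (adjusted p = 0.0206), but the call was lost without vehicle array 2 or 6 or rapamycin array 3 or 4. ACAT2 in C5.2 read 7.32, 7.33, 7.15, 7.42 and 7.33 in vehicle, 7.25, 7.30, 7.18, 7.31 and 7.49 with doxorubicin, 6.47, 6.44, 6.61, 6.69 and 6.86 with rapamycin and 6.78, 6.64, 6.94, 6.92 and 7.01 with both. The rapamycin and the combined arrays all lay below the vehicle arrays, with falls of 0.69 ± 0.09 and 0.45 ± 0.09. ACAT2 in SKBR3 read 6.15, 5.40, 5.49, 5.41 and 5.09 in vehicle, 5.84, 5.56, 5.64, 5.74 and 4.90 with doxorubicin, 4.66, 4.08, 4.17, 4.26 and 4.27 with rapamycin and 4.77, 4.57, 4.22, 4.53 and 4.45 with both. Again no array with rapamycin reached the vehicle arrays, and the fall of 1.22 ± 0.19 (2.33-fold, adjusted p = 9.48e-05) was the largest of any member in that line. Only vehicle and doxorubicin arrays carried ACAT2 past the filter in SKBR3, which favours a fall.

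ACLY fell in C5.2 and SKBR3 by the smallest differences called for any member against vehicle. ACLY in HB4a read 8.97, 9.35, 9.01, 9.28 and 9.12 in vehicle, 9.04, 9.20, 9.10, 9.36 and 9.07 with doxorubicin, 8.75, 9.11, 8.96, 9.18 and 9.07 with rapamycin and 8.83, 9.01, 9.15, 9.14 and 9.11 with both, and these groups overlapped. ACLY in C5.2 read 9.05, 9.09, 8.99, 9.18 and 9.09 in vehicle, 9.03, 8.80, 8.94, 9.003 and 9.04 with doxorubicin, 8.85, 8.78, 8.80, 8.84 and 8.89 with rapamycin and 8.82, 8.69, 8.74, 8.77 and 8.88 with both. ACLY in SKBR3 read 10.36, 10.33, 10.36, 10.503 and 10.33 in vehicle, 10.11, 10.35, 10.34, 10.37 and 10.15 with doxorubicin, 10.06, 10.08, 10.17, 10.15 and 10.15 with rapamycin and 9.98, 10.22, 10.16, 10.08 and 10.14 with both. Neither with rapamycin nor with both drugs did the C5.2 or SKBR3 arrays overlap with vehicle: the differences were -0.25 ± 0.06 and -0.30 ± 0.06 in C5.2 and -0.25 ± 0.06 and -0.26 ± 0.06 in SKBR3. These calls were lost in C5.2, and in SKBR3 with rapamycin, when the mean of all probe sets of the gene was used. ME1, the malic enzyme that supplies NADPH, fell only with both drugs in SKBR3 among the 9 treatments (-0.56 ± 0.13, adjusted p = 0.00391). ACSS2 was tested in HB4a and SKBR3 and changed in neither (largest difference 0.25 ± 0.16, adjusted p = 0.353).

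Of the mevalonate and isoprenoid steps, FDPS fell in C5.2 and SKBR3. In HB4a, FDPS read 8.502, 8.58, 8.35, 8.78 and 8.95 in vehicle, 8.53, 8.86, 8.63, 8.92 and 8.85 with doxorubicin, 8.25, 8.68, 8.24, 8.57 and 8.66 with rapamycin and 8.20, 8.30, 8.64, 8.63 and 8.79 with both, with wide overlap. FDPS in C5.2 read 8.43, 8.57, 8.41, 8.42 and 8.57 in vehicle, 8.36, 8.52, 8.31, 8.19 and 8.44 with doxorubicin, 7.93, 8.03, 8.03, 8.02 and 8.17 with rapamycin and 7.82, 7.91, 7.98, 8.02 and 8.08 with both. FDPS in SKBR3 read 8.92, 8.52, 8.64, 8.69 and 8.502 in vehicle, 8.999, 8.86, 8.78, 8.87 and 8.42 with doxorubicin, 8.23, 7.81, 8.18, 8.18 and 7.78 with rapamycin and 8.21, 8.20, 8.35, 8.19 and 8.33 with both. In both of these lines every array with rapamycin lay below every vehicle array. The differences with rapamycin were -0.44 ± 0.07 in C5.2 (adjusted p = 0.000632) and -0.62 ± 0.11 in SKBR3 (adjusted p = 0.000526), and with both drugs -0.52 ± 0.07 and -0.40 ± 0.11. The SKBR3 call with both drugs was lost without vehicle array 1, which was the highest. IDI1 fell in SKBR3, by 0.71 ± 0.20 with rapamycin and 0.86 ± 0.20 with both drugs, while its differences in C5.2 were -0.02 ± 0.11 and -0.14 ± 0.11 (adjusted p = 0.916 and 0.407). The kinases MVK and PMVK, tested in each line, changed with no treatment against vehicle. HMGCS1 and MVD stayed under the filter; HMGCS1 ranged from 1.12 to 3.08 in HB4a, 1.58 to 3.33 in C5.2 and 3.73 to 5.48 in SKBR3, and MVD was at most 3.33.

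Squalene and sterol steps held the most tested genes and the most calls. SQLE, which makes the first oxygenated sterol precursor, read 7.07, 7.11, 7.18, 7.35 and 6.94 in HB4a vehicle, 6.74, 6.97, 6.64, 6.66 and 6.70 with doxorubicin, 6.94, 6.89, 7.05, 6.38 and 6.70 with rapamycin and 6.59, 6.44, 6.33, 6.496 and 6.31 with both drugs. SQLE in C5.2 read 7.03, 6.66, 7.02, 7.08 and 6.94 in vehicle, 6.73, 6.54, 6.48, 6.81 and 6.62 with doxorubicin, 6.85, 6.52, 6.82, 6.74 and 6.77 with rapamycin and 6.72, 5.89, 6.47, 6.38 and 6.49 with both. SQLE in SKBR3 read 8.02, 7.46, 7.71, 7.88 and 7.42 in vehicle, 7.77, 7.58, 7.69, 7.76 and 7.49 with doxorubicin, 7.27, 7.14, 7.36, 7.34 and 6.81 with rapamycin and 7.26, 7.21, 7.03, 7.39 and 6.67 with both. The combined arrays lay below the vehicle arrays in HB4a and SKBR3 with no overlap, and in C5.2 combined array 1 (6.72) overlapped with vehicle array 2 (6.66). With both drugs SQLE fell by 0.70 ± 0.12 in HB4a (adjusted p = 0.000306), fell by 0.56 ± 0.12 in C5.2 (adjusted p = 0.00354) and fell by 0.59 ± 0.14 in SKBR3 (adjusted p = 0.00598). With doxorubicin alone the HB4a call (-0.39 ± 0.12, adjusted p = 0.0379) held in 3 of 10 refits that each left out 1 array. It was lost on leaving out any 1 of vehicle arrays 1, 2, 3 and 4 and doxorubicin arrays 3, 4 and 6.

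DHCR7 fell with both drugs in each line. DHCR7 in HB4a read 6.28, 7.05, 6.58, 7.04 and 6.51 in vehicle, 6.31, 6.62, 6.63, 7.16 and 6.57 with doxorubicin, 5.58, 6.36, 5.93, 6.59 and 6.15 with rapamycin and 5.76, 6.01, 6.28, 6.24 and 6.28 with both. DHCR7 in C5.2 read 4.85, 5.75, 5.38, 5.43 and 5.44 in vehicle, 5.19, 5.40, 5.199, 4.97 and 5.46 with doxorubicin, 4.68, 4.87, 4.70, 4.68 and 4.85 with rapamycin and 4.41, 4.67, 4.498, 4.44 and 4.84 with both. DHCR7 in SKBR3 read 6.94, 7.42, 7.27, 7.57 and 7.28 in vehicle, 7.03, 7.21, 7.53, 7.28 and 7.01 with doxorubicin, 6.58, 6.83, 7.05, 6.84 and 6.91 with rapamycin and 6.85, 6.92, 7.06, 6.78 and 7.08 with both. Only in C5.2 with both drugs, of its 5 calls, did the arrays not overlap with vehicle, narrowly (4.84 against 4.85). The fall there was 0.80 ± 0.14 (adjusted p = 0.000529), and with rapamycin DHCR7 fell by 0.62 ± 0.14 in C5.2 and fell by 0.45 ± 0.12 in SKBR3. Only vehicle and doxorubicin arrays carried DHCR7 past the filter in C5.2, which favours a fall. In HB4a the difference with both drugs was -0.58 ± 0.19 (adjusted p = 0.0389), lost on leaving out any 1 of vehicle arrays 2, 3 and 4 and combined arrays 1, 2 and 4. In HB4a with rapamycin it was -0.57 ± 0.19 (adjusted p = 0.12; 0.00171 with experiment number as the block). In SKBR3 the combined call (-0.36 ± 0.12, adjusted p = 0.0396) was lost on leaving out any 1 of vehicle arrays 2, 3, 4 and 6 and combined arrays 1, 2 and 4. It was also lost with no filter, after quantile normalization and with all 60 arrays in 1 fit. Another bright probe set of DHCR7 gave smaller differences in SKBR3, -0.16 with rapamycin and -0.13 with both drugs, but -0.60 in HB4a with both. Averaging DHCR7 over its probe sets left neither SKBR3 difference called.

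HSD17B7, a sterol ketone reductase that also acts on estrogens, rose with doxorubicin in HB4a and fell with rapamycin in C5.2 and SKBR3. HSD17B7 in HB4a read 6.26, 6.11, 5.96, 6.32 and 5.98 in vehicle, 6.71, 6.79, 6.37, 6.52 and 6.84 with doxorubicin, 6.07, 5.99, 5.82, 6.20 and 6.09 with rapamycin and 6.39, 6.27, 6.46, 6.60 and 6.53 with both. HSD17B7 in C5.2 read 6.05, 6.13, 6.27, 6.27 and 6.30 in vehicle, 6.48, 6.21, 6.54, 6.61 and 6.76 with doxorubicin, 5.90, 5.73, 5.80, 5.87 and 5.82 with rapamycin and 6.52, 6.15, 6.52, 6.42 and 6.45 with both. HSD17B7 in SKBR3 read 5.38, 5.40, 5.28, 5.43 and 5.29 in vehicle, 5.35, 5.22, 5.10, 5.22 and 5.18 with doxorubicin, 4.95, 4.87, 4.78, 4.89 and 4.89 with rapamycin and 5.01, 5.04, 5.01, 4.63 and 4.87 with both. All HB4a arrays with doxorubicin lay above vehicle, a rise of 0.52 ± 0.11 (adjusted p = 0.00542). In C5.2 with doxorubicin the difference was 0.32, called higher only with experiment number as the block. With rapamycin all arrays lay below vehicle in C5.2 (-0.38 ± 0.10) and SKBR3 (-0.48 ± 0.10), and both were called. No SKBR3 array with rapamycin was above 5, so the other groups carried HSD17B7 past the filter there. With both drugs it fell in SKBR3 (-0.44 ± 0.10), while the difference was 0.32 ± 0.11 in HB4a (adjusted p = 0.0562) and 0.21 ± 0.10 in C5.2 (adjusted p = 0.133). A pseudogene of near-identical sequence exists, and the probe set's share of signal from it was not tested.

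TM7SF2, a reductase of the sterol ring, was the member that rose most. TM7SF2 in HB4a read 3.78, 4.02, 4.70, 4.11 and 4.45 in vehicle, 5.30, 5.56, 6.13, 6.02 and 6.43 with doxorubicin, 3.38, 4.02, 4.32, 4.32 and 4.81 with rapamycin and 5.16, 6.13, 5.31, 5.63 and 6.23 with both. TM7SF2 in C5.2 read 2.26, 3.43, 2.87, 2.999 and 3.22 in vehicle, 3.73, 4.17, 4.07, 3.76 and 4.34 with doxorubicin, 2.98, 3.38, 2.98, 2.71 and 3.22 with rapamycin and 4.07, 4.52, 3.66, 3.32 and 4.46 with both. TM7SF2 in SKBR3 read 3.99, 4.33, 4.39, 4.76 and 4.79 in vehicle, 4.13, 4.76, 4.997, 4.93 and 4.96 with doxorubicin, 4.15, 4.18, 5.07, 4.99 and 4.94 with rapamycin and 4.45, 4.498, 4.81, 4.86 and 5.03 with both. In HB4a the arrays with doxorubicin, alone or combined, all lay above 5 and above every vehicle array. The rises were 1.68 ± 0.27 with doxorubicin (3.2-fold, adjusted p = 0.000246) and 1.48 ± 0.27 with both (2.79-fold, adjusted p = 0.000477). Since these arrays alone carried it past the filter in HB4a, it had to differ there. In C5.2 it was under the filter; with no filter its differences were 1.06 ± 0.22 (adjusted p = 0.0149) with doxorubicin and 1.05 ± 0.22 (adjusted p = 0.00491) with both.

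The remaining sterol enzymes fell in 1 line each. LSS fell in C5.2 with rapamycin (-0.58 ± 0.10, adjusted p = 0.00087) and with both drugs (-0.61 ± 0.10), and NSDHL, which helps to remove sterol methyl groups, fell there as well (-0.62 ± 0.12 and -0.55 ± 0.12). MSMO1, the oxidase of the same methyl groups, fell in C5.2 with both drugs (-0.64 ± 0.22, adjusted p = 0.0475), a call that held in 3 of 10 refits without 1 array. It was lost without any C5.2 vehicle array left out in turn (1, 2, 3, 4 or 6) and without combined array 1 or 2. EBP fell in SKBR3, by 0.69 ± 0.10 with rapamycin (adjusted p = 7.17e-05) and by 0.53 ± 0.10 with both. In HB4a given rapamycin, EBP differed by -0.52 ± 0.15 (adjusted p = 0.0589; 0.0108 with the block), and LSS by -0.42 ± 0.18 (0.262; 0.00121 with the block). SC5D, a desaturase, ranged from 2.12 to 4.46 in HB4a, 2.53 to 3.96 in C5.2 and 1.99 to 3.75 in SKBR3.

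**Figure D3:**
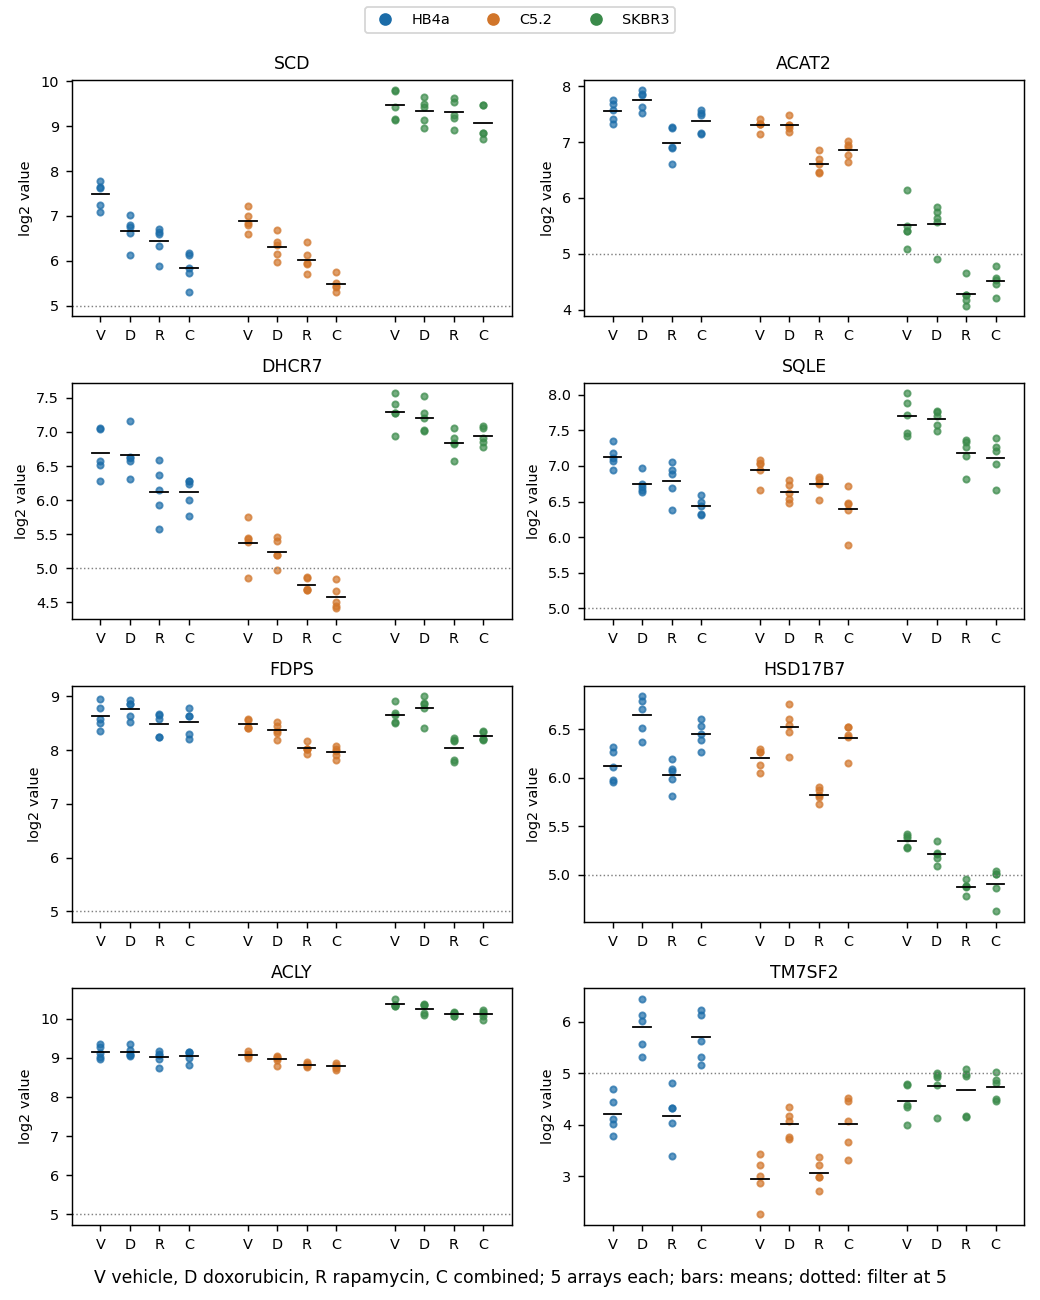
Log2 value on every array for the 8 genes called in the most treatment comparisons, with vertical scales that differ by gene. Points are single arrays, 5 per group, coloured by line, bars are group means, and the dotted line is the filter at 5. SCD descends from vehicle to both drugs in HB4a and C5.2, ACAT2 is low wherever SKBR3 received rapamycin, and TM7SF2 is high wherever HB4a received doxorubicin.

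SREBF1, tested only in SKBR3, was called with no treatment, and SREBF2 was tested in no line. SREBF1 read 7.28, 8.52, 8.43, 8.41 and 8.68 in SKBR3 vehicle, 6.74, 8.06, 8.34, 7.96 and 8.21 with doxorubicin, 7.71, 8.47, 8.91, 8.503 and 8.63 with rapamycin and 7.67, 8.24, 8.41, 8.45 and 8.57 with both. Array 1 was the lowest in each of these groups. The groups overlapped (difference with rapamycin 0.18 ± 0.29, adjusted p = 0.728; with doxorubicin -0.40 ± 0.29, adjusted p = 0.9997, and 0.0151 with the block). SREBF1 in HB4a read 3.81, 4.09, 3.98, 3.77 and 4.10 in vehicle, 3.38, 3.84, 3.79, 3.66 and 3.69 with doxorubicin, 3.06, 3.85, 3.43, 3.62 and 3.77 with rapamycin and 3.13, 3.21, 3.41, 3.16 and 3.66 with both. SREBF1 in C5.2 read 4.01, 4.58, 3.86, 4.08 and 4.49 in vehicle, 3.99, 4.57, 3.79, 3.83 and 4.25 with doxorubicin, 3.70, 4.04, 3.31, 3.53 and 3.69 with rapamycin and 3.48, 3.80, 3.46, 3.58 and 3.84 with both. Both lines were under the filter; with no filter the differences with both drugs were -0.64 ± 0.15 (adjusted p = 0.0095) in HB4a and -0.57 ± 0.17 (adjusted p = 0.0449) in C5.2.

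SREBF2 was under the filter in every line. SREBF2 in HB4a read 3.999, 4.496, 4.44, 4.45 and 4.10 in vehicle, 4.13, 4.44, 4.37, 4.72 and 4.46 with doxorubicin, 3.93, 4.55, 4.43, 4.38 and 4.51 with rapamycin and 4.09, 4.42, 4.56, 4.71 and 4.64 with both. SREBF2 in C5.2 read 3.73, 4.10, 4.33, 4.13 and 4.31 in vehicle, 3.97, 4.22, 4.23, 3.69 and 4.33 with doxorubicin, 4.06, 4.40, 4.45, 3.98 and 4.35 with rapamycin and 4.20, 4.25, 4.54, 4.01 and 4.40 with both. SREBF2 in SKBR3 read 4.04, 4.57, 4.65, 4.70 and 4.69 in vehicle, 4.34, 4.86, 4.79, 4.64 and 4.51 with doxorubicin, 4.39, 4.67, 5.15, 4.81 and 4.60 with rapamycin and 4.41, 4.72, 4.92, 4.54 and 4.62 with both. The treated groups overlapped with vehicle in each line.

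INSIG1, itself a known SREBP target, fell with rapamycin in SKBR3. There it read 5.69, 5.497, 6.28, 6.34 and 5.43 in vehicle, 5.41, 5.52, 6.02, 6.12 and 5.39 with doxorubicin, 4.76, 4.91, 5.54, 5.30 and 4.45 with rapamycin and 4.94, 4.97, 5.24, 5.17 and 4.16 with both. The differences were -0.85 ± 0.24 with rapamycin (adjusted p = 0.0166, lost without vehicle array 3 or 4 or rapamycin array 6) and -0.95 ± 0.24 with both (adjusted p = 0.00869, no overlap). INSIG1 in C5.2 read 5.84, 5.51, 6.02, 5.83 and 5.58 in vehicle, 5.12, 4.77, 5.36, 5.73 and 5.37 with doxorubicin, 5.47, 4.79, 6.15, 6.04 and 5.70 with rapamycin and 5.38, 4.09, 5.73, 5.72 and 5.11 with both, with overlap and no call (-0.55 ± 0.28, adjusted p = 0.178 with both). INSIG1 in HB4a read 4.30, 4.23, 4.29, 4.89 and 4.39 in vehicle, 4.36, 4.23, 3.84, 4.42 and 4.07 with doxorubicin, 3.99, 4.06, 4.32, 4.34 and 3.93 with rapamycin and 3.83, 3.57, 3.83, 4.15 and 3.89 with both, under the filter. With no filter its HB4a difference with both drugs was -0.57 ± 0.15 (adjusted p = 0.022). SCAP, tested in each line, was called with no treatment against vehicle (largest difference 0.40 ± 0.22, SKBR3 with both, adjusted p = 0.199). STARD4, a sterol carrier, was at most 3.04 on any array; with no filter it differed by -0.70 ± 0.19 (adjusted p = 0.0297) in SKBR3 with both drugs.

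Among fatty acid genes, SCD had the most calls of all members, 6 of 9. SCD in HB4a read 7.25, 7.09, 7.63, 7.78 and 7.65 in vehicle, 6.13, 6.79, 6.74, 6.62 and 7.01 with doxorubicin, 5.89, 6.33, 6.71, 6.63 and 6.59 with rapamycin and 5.30, 5.83, 5.72, 6.12 and 6.18 with both. SCD in C5.2 read 6.60, 6.999, 6.84, 6.80 and 7.22 in vehicle, 6.34, 6.42, 5.98, 6.15 and 6.67 with doxorubicin, 6.12, 5.94, 5.69, 5.92 and 6.42 with rapamycin and 5.503, 5.43, 5.30, 5.42 and 5.74 with both. SCD in SKBR3 read 9.15, 9.15, 9.78, 9.80 and 9.44 in vehicle, 8.97, 9.15, 9.500, 9.64 and 9.44 with doxorubicin, 8.92, 9.18, 9.64, 9.54 and 9.25 with rapamycin and 8.71, 8.85, 9.47, 9.47 and 8.86 with both. In HB4a and C5.2 no array with both drugs reached a vehicle array, whereas in SKBR3 the groups overlapped. In HB4a SCD fell by 0.82 ± 0.19 with doxorubicin, fell by 1.05 ± 0.19 with rapamycin and fell by 1.65 ± 0.19 with both (3.14-fold, adjusted p = 3.85e-06). In C5.2 it fell by 0.87 ± 0.14 with rapamycin and fell by 1.41 ± 0.14 with both (2.66-fold, adjusted p = 2.1e-06). The C5.2 call with doxorubicin alone (-0.58 ± 0.14, adjusted p = 0.031) held in 3 of 10 refits that each left out 1 array. In SKBR3 with both drugs the difference was -0.39 ± 0.18 (adjusted p = 0.119; 4.7e-05 with the block).

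FASN fell in HB4a with rapamycin (-0.66 ± 0.15, adjusted p = 0.0161, lost without vehicle array 2) and with both drugs (-0.75 ± 0.15, adjusted p = 0.00147). Only vehicle and doxorubicin arrays carried FASN past the filter in HB4a, which favours a fall. In SKBR3, where it was 6.29-fold higher under vehicle than in HB4a, the differences were 0.04 ± 0.32 with rapamycin and -0.27 ± 0.32 with both (adjusted p = 0.955 and 0.566; 0.796 and 0.0386 with the block). FASN was under the filter in C5.2. With no filter its differences there were -0.38 ± 0.17 with rapamycin (adjusted p = 0.251) and -0.48 ± 0.17 with both drugs (adjusted p = 0.0994). ACACA fell with both drugs in HB4a (-0.65 ± 0.15) and SKBR3 (-0.41 ± 0.12, adjusted p = 0.024, lost without vehicle array 4 or 6 or combined array 1). ELOVL6 was tested only in SKBR3 and fell there with both drugs (-0.89 ± 0.28, adjusted p = 0.0265). That call was lost without vehicle array 1 or 4 or combined array 2, 3 or 6. In C5.2, with no filter, the ELOVL6 difference with both drugs was -0.92 ± 0.23 (adjusted p = 0.0168). ELOVL5, an elongase of polyunsaturated chains, changed with no treatment against vehicle. ACACB (4.22 to 4.90 in HB4a, 4.05 to 4.91 in C5.2 and 4.15 to 4.92 in SKBR3) and FADS2 (3.22 to 4.24, 3.91 to 4.90 and 1.91 to 2.81) were under the filter.

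Of the acyl-CoA and glycerolipid genes, ACSL1, which activates long-chain fatty acids, fell in HB4a with doxorubicin (-0.49 ± 0.13, adjusted p = 0.0151, lost without doxorubicin array 4) and with both drugs (-0.73 ± 0.13, adjusted p = 0.000364). LPIN1, a phosphatidate phosphatase, was called with no treatment against vehicle. Among the liver X receptor targets, MYLIP, a ubiquitin ligase that acts on lipoprotein receptors, rose in SKBR3. It read 5.70, 5.30, 5.52, 5.60 and 5.203 in vehicle, 5.98, 5.83, 6.32, 5.91 and 5.59 with rapamycin and 5.94, 5.90, 6.09, 6.26 and 5.60 with both. The rises were 0.46 ± 0.14 (adjusted p = 0.0259, lost without vehicle array 2 or 6 or rapamycin array 3) and 0.49 ± 0.14 (adjusted p = 0.0167), and both groups overlapped with vehicle. In HB4a and C5.2 MYLIP was under the filter, at 3.58 ± 0.16 and 4.37 ± 0.31 in vehicle and 3.11 ± 0.20 and 3.95 ± 0.21 with rapamycin. ABCG1 in SKBR3 differed by 0.22 ± 0.17 with rapamycin (adjusted p = 0.436), and ABCA1, the other exporter, was at most 1.93 on any array.

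Rapamycin added to doxorubicin was read from the combined against the doxorubicin arrays. In HB4a 2 of 23 members fell (2.58% of all genes called), SCD by 0.83 ± 0.19 and FASN by 0.57 ± 0.15. Leaving out 1 array gave 0 or 1, FASN being lost without any 1 of the 10 arrays and SCD without doxorubicin array 2, 3 or 6 or combined array 1. In C5.2 8 of 21 fell (13.5%): SCD (-0.84 ± 0.14), DHCR7 (-0.67 ± 0.14), LSS (-0.48 ± 0.10), ACAT2 (-0.45 ± 0.09), NSDHL (-0.42 ± 0.12), FDPS (-0.40 ± 0.07), PMVK and ACLY. It was 5 without any 1 of doxorubicin arrays 3 and 6 and combined arrays 1 and 4, and also 5 with no filter and 4 after quantile normalization. NSDHL, PMVK and ACLY were the calls lost with these arrays, and the block added ACACA, SQLE and ME1 (38% of all genes called). In SKBR3 10 of 27 fell (22%): ACAT2 (-1.03 ± 0.19), IDI1 (-0.84 ± 0.20), ELOVL6 (-0.84 ± 0.28), INSIG1 (-0.80 ± 0.24), EBP (-0.64 ± 0.10), SQLE (-0.55 ± 0.14), FDPS, ACACA, ME1 and HSD17B7. It was 6 without doxorubicin array 4 or combined array 6, and 17 with experiment number as the block, when 49.6% of all genes were called. The block added ACLY, DHCR7, SCD and MSMO1 as lower and SCAP, ABCG1 and SREBF1 as higher. Without it no member rose in these 3 comparisons. FASN in HB4a, DHCR7 in C5.2 and ACAT2 in SKBR3 had no combined array above 5, so other groups carried them past the filter.

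Whether the lines responded differently was tested as the difference between their responses. No member was called between C5.2 and HB4a, with any treatment (0.101%, 0% and 0.373% of all genes with doxorubicin, rapamycin and both), where limma gave 0, 1 and 2 members at an unadjusted p under 0.05. Between SKBR3 and HB4a, 5 of 28 differed with both drugs (9.82%), 2 with doxorubicin (3.87%) and 2 with rapamycin (5.03%). Between SKBR3 and C5.2, 5 of 27 differed with both drugs (12.3%), 1 with rapamycin (6.23%) and 0 with doxorubicin (1.47%; 3 at an unadjusted p under 0.05 in limma). The fall of SCD with both drugs was smaller in SKBR3 by 1.26 ± 0.27 than in HB4a (adjusted p = 0.00155) and by 1.02 ± 0.24 than in C5.2 (adjusted p = 0.00329). HSD17B7 responded lower in SKBR3 with both drugs, by -0.77 ± 0.14 against HB4a and -0.65 ± 0.13 against C5.2, and with doxorubicin by -0.66 ± 0.14 against HB4a. The response of ACAT2 to both drugs was -0.83 ± 0.23 in SKBR3 relative to HB4a (adjusted p = 0.0169).

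LSS, which fell in C5.2 with both drugs, differed there from SKBR3 by 0.72 ± 0.21 (SKBR3 minus C5.2, adjusted p = 0.0203). IDI1 differed by -0.71 ± 0.23 (adjusted p = 0.0375), a call held in 6 of 20 refits without 1 array and lost on leaving out any 1 of C5.2 vehicle arrays 2, 3, 4 and 6 and combined arrays 1, 3, 4 and 6, or SKBR3 vehicle arrays 1, 3 and 4 and combined arrays 2, 3 and 6. The response of TM7SF2 was lower in SKBR3 than in HB4a by 1.37 ± 0.35 with doxorubicin and by 1.20 ± 0.35 with both; it entered that fit through the HB4a arrays with doxorubicin, alone or combined, so its rise there was a condition of being tested. MYLIP differed with rapamycin by 0.92 ± 0.21 from HB4a and 0.89 ± 0.24 from C5.2, and with both drugs by 0.85 ± 0.21 and 0.84 ± 0.24; in HB4a and C5.2 these rest on values under the filter. The MYLIP call between SKBR3 and HB4a with rapamycin was lost without the arrays left out together (0.80, adjusted p = 0.0753). The one between SKBR3 and C5.2 with rapamycin was lost without C5.2 vehicle array 6 or SKBR3 rapamycin array 3, and the count of 1 in that comparison was 0 then and 3 without C5.2 vehicle array 1. It was 2 without C5.2 rapamycin array 2 or 6, SKBR3 vehicle array 2, 3 or 4, or SKBR3 rapamycin array 1 or 4. The rapamycin response of SCD differed by 0.89 ± 0.27 between SKBR3 and HB4a (adjusted p = 0.0474), lost in 12 of 20 refits (on leaving out any 1 of HB4a vehicle arrays 3, 4 and 6 and rapamycin arrays 1 and 2, or SKBR3 vehicle arrays 1, 2 and 6 and rapamycin arrays 2, 3, 4 and 6). The genes ACAT2, IDI1, HSD17B7, INSIG1, EBP, FDPS, SQLE, DHCR7 and ACLY were called in SKBR3 with rapamycin, but their rapamycin responses were not called different between SKBR3 and another line. With the experiment within each line as the block, the rapamycin counts became 11 between SKBR3 and HB4a (22.5% of all genes) and 10 between SKBR3 and C5.2 (32.4%), with ACAT2, IDI1, HSD17B7, INSIG1, FDPS and SQLE among them. The doxorubicin counts became 5 (15.9%) and 3 (8.23%), by adding SCD and ABCG1 to both and MYLIP and HSD17B7 to 1 each.

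**Figure D4:**
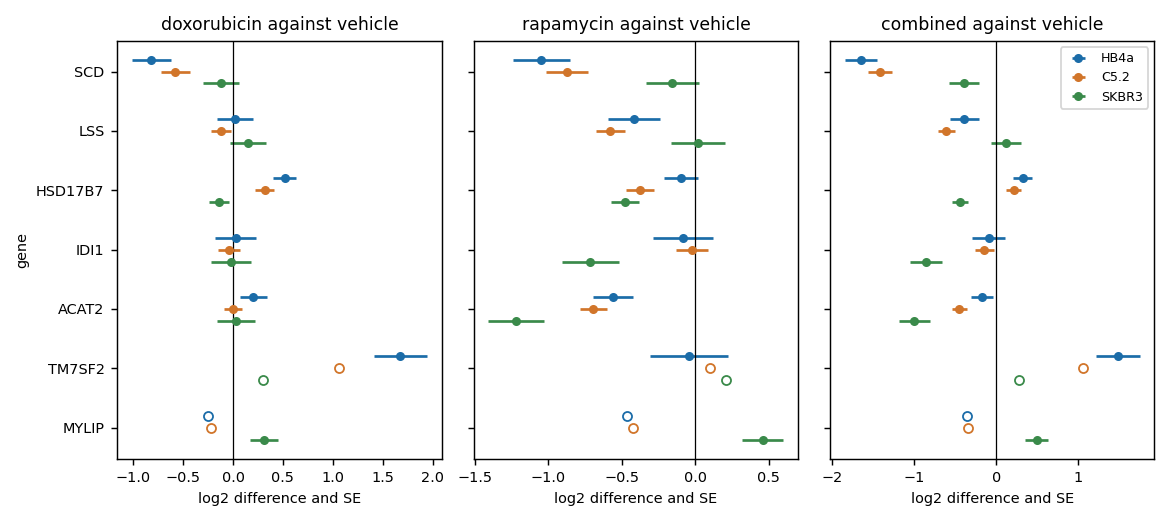
Difference from vehicle in log2 units (horizontal axis) for the 7 genes whose response differed between lines in at least 1 test, in 3 panels for doxorubicin, rapamycin and both drugs. Filled points carry the SE of the fit within the line (5 arrays per group), and open circles are plain differences of means for genes under the filter in that line. SCD lies nearer 0 in SKBR3 than in HB4a and C5.2 with both drugs, and with rapamycin and with both drugs ACAT2 lies further to the left in SKBR3 than in the other lines.

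Other genes of sterol and lipid handling came from a list of 24, of which 14 were tested in HB4a, 15 in C5.2 and 14 in SKBR3. With rapamycin 0 rose and 0 fell in HB4a (3.18% of all genes called; 2 of the list at an unadjusted p under 0.05 in limma), 1 rose and 2 fell in C5.2 (17.4%), and 1 rose and 3 fell in SKBR3 (18.3%). With both drugs 3 rose and 1 fell in HB4a (17.4%), 3 rose and 0 fell in C5.2 (21%), and 2 rose and 6 fell in SKBR3 (22%). With doxorubicin 2 rose and 1 fell in HB4a (11.4%), 1 rose and 0 fell in C5.2 (3.26%), and 0 changed in SKBR3 (0.837%; 2 at an unadjusted p under 0.05 in limma). NPC2, which carries sterols out of lysosomes, rose with both drugs in each line (0.41 ± 0.08 in HB4a, 0.32 ± 0.05 in C5.2 and 0.31 ± 0.11 in SKBR3), and its partner NPC1 rose in HB4a (0.36 ± 0.11). MBTPS1, a protease that cleaves SREBPs, rose with both drugs in HB4a (0.52 ± 0.12) and C5.2 (0.33 ± 0.10), while MBTPS2, the protease of the following cut, fell in SKBR3 (-0.47 ± 0.16). LBR, a nuclear membrane protein with the same sterol reductase activity as TM7SF2, fell in SKBR3 by 1.19 ± 0.22 with rapamycin (adjusted p = 0.000576) and by 1.31 ± 0.22 with both. Its rapamycin response differed from HB4a by -1.27 ± 0.37 and from C5.2 by -1.23 ± 0.32. TMEM97, a sterol-responsive receptor protein, fell in SKBR3 (-0.54 ± 0.09 with rapamycin) and rose in C5.2 with both drugs (0.22 ± 0.08). Its response to the same treatment was called different between lines (-0.59 ± 0.11, adjusted p = 0.00028).

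In SKBR3 with both drugs HSD17B12 (-0.60 ± 0.17) and HACD3 (-0.42 ± 0.11), which serve fatty acid elongation, and ERG28 (-0.35 ± 0.11), a scaffold of sterol enzymes, fell as well. ERG28 also fell with rapamycin in C5.2 (-0.34 ± 0.10), as did AACS (-0.37 ± 0.10), which activates acetoacetate for lipid synthesis. ACSL5, an acyl-CoA synthetase, rose in SKBR3 (0.39 ± 0.14 with rapamycin, adjusted p = 0.0498, and 0.64 ± 0.14 with both). FABP5, a fatty acid binding protein, fell in HB4a with both drugs (-0.75 ± 0.21, adjusted p = 0.0148).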

How the data were processed

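Levels came from 60 arrays with 54675 probe sets. The authors deposited log2 values made by RMA, per the submitters' processing notes, which give no version; that the base is 2 was read from the values (-0.60 to 13.08). RMA subtracts background and equalises arrays, so low values are compressed and a shift shared by all genes is not seen. Of the probe sets, 41091 had 1 gene symbol, 1801 had several, 11721 had no listing in the annotation table used and 62 were controls. Depth does not apply to arrays, and 5 arrays per group limit the precision. The labels write the combined group by the code DRC in some places and the vehicle by it in the titles, and 1 dose unit is garbled; source names settled both.

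Each of 19775 genes was read from its brightest probe set (highest mean). limma 3.58.1 (R 4.3.3; lmFit, eBayes with trend, 2-sided) was fitted to the 20 arrays of a line, or the 40 of 2 lines, on genes above log2 5 on at least 5 arrays, with Benjamini-Hochberg adjustment over all genes tested and a call at adjusted p under 0.05. Differences between the responses of 2 lines were interaction terms. The numbers 1, 2, 3, 4 and 6 mark independent experiments. Residuals of same-numbered arrays correlated above 0.1 in every pair for HB4a with doxorubicin and with rapamycin (lowest 0.43 and 0.46). So they did for C5.2 with doxorubicin, with rapamycin and for combined against doxorubicin (0.13, 0.11 and 0.27). The same held for all comparisons within SKBR3 (0.24) and for C5.2 against HB4a in vehicle (0.16). In the other comparisons of groups at least 1 pair did not correlate above 0.1 (lowest -0.54), so block results there are kept to the closing section. For the response of a line, the block was the experiment within that line. The experiments are described as independent, but p-values measure only the spread between these arrays.

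The members, the list of other genes and the tests were chosen with earlier results of these data known. Called members are named in each comparison of treatments and of responses, but not all of them between lines in vehicle. Values on every array are given for the 8 genes with the most treatment calls, and for SREBF1, SREBF2 and INSIG1. Those of MYLIP were added after its values were seen. Promoter windows were read from a RefSeq table. Alternatives were another filter, none, the mean of probe sets, centring, quantile normalization, no trend, 1 fit of all arrays, the block, and arrays left out. The test was tried on simulated data. Summaries and figures were made in Python 3.11.15 (numpy 2.4.6, pandas 2.3.3, matplotlib 3.10.9). Some genes of this pathway are not reported here.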

Additional observations from a re-analysis of the deposited data

Results flagged for a closer look

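In 9 of 132 groups of 5 arrays that were checked, 1 array stood off from the other 4 by more than Dixon's critical value of 0.71 of the group's range; chance flags about 1 in 20 groups. HSD17B7 on C5.2 combined array 2 read 6.15, with the others between 6.42 and 6.52. ACLY on SKBR3 vehicle array 4 read 10.50, with the others between 10.33 and 10.36. TM7SF2 on SKBR3 doxorubicin array 1 read 4.13, with the others between 4.76 and 5.00. SREBF1 on SKBR3 vehicle array 1 read 7.28, with the others between 8.41 and 8.68. SREBF1 on SKBR3 doxorubicin array 1 read 6.74, with the others between 7.96 and 8.34. SREBF2 on HB4a rapamycin array 1 read 3.93, with the others between 4.38 and 4.55. SREBF2 on SKBR3 vehicle array 1 read 4.04, with the others between 4.57 and 4.70. INSIG1 on HB4a vehicle array 4 read 4.89, with the others between 4.23 and 4.39. INSIG1 on SKBR3 combined array 6 read 4.16, with the others between 4.94 and 5.24. Array 1 of a group accounts for 5 of them, 4 of these in SKBR3. 

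In 15 tests a member's response differed between lines (limma, adjusted p under 0.05), each value being the response of the first line minus that of the second, ± SE. For SKBR3 minus C5.2 with both drugs, the differences were HSD17B7 -0.65 ± 0.13 (adjusted p = 0.00049), SCD 1.02 ± 0.24 (adjusted p = 0.00329), MYLIP 0.84 ± 0.24 (adjusted p = 0.0179), LSS 0.72 ± 0.21 (adjusted p = 0.0203) and IDI1 -0.71 ± 0.23 (adjusted p = 0.0375). For SKBR3 minus HB4a with both drugs, the differences were HSD17B7 -0.77 ± 0.14 (adjusted p = 0.00021), SCD 1.26 ± 0.27 (adjusted p = 0.00155), MYLIP 0.85 ± 0.21 (adjusted p = 0.00634), ACAT2 -0.83 ± 0.23 (adjusted p = 0.0169) and TM7SF2 -1.20 ± 0.35 (adjusted p = 0.0226). For SKBR3 minus HB4a with doxorubicin, the differences were HSD17B7 -0.66 ± 0.14 (adjusted p = 0.00275) and TM7SF2 -1.37 ± 0.35 (adjusted p = 0.0167). For SKBR3 minus C5.2 with rapamycin, the difference was MYLIP 0.89 ± 0.24 (adjusted p = 0.0216). For SKBR3 minus HB4a with rapamycin, the differences were MYLIP 0.92 ± 0.21 (adjusted p = 0.00479) and SCD 0.89 ± 0.27 (adjusted p = 0.0474). MYLIP was under the filter in HB4a and C5.2, and TM7SF2 was under it in SKBR3 and passed it in HB4a through the arrays with doxorubicin, alone or combined. Without the arrays left out together, the MYLIP rapamycin difference between SKBR3 and HB4a was 0.80 (adjusted p = 0.0753). SCD fell in HB4a and C5.2 and was not called in SKBR3, so its positive differences stand for smaller falls.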

How the results depend on the processing

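Over the alternatives run, 2650 of 2872 values for the 146 single calls kept their direction and stayed past the threshold, 222 kept the direction and lost the call, and 0 reversed; 100 calls held under every alternative. Of 558 alternative counts of called members, 112 moved by over 1.5 times. The causes were not tested, except that a filter at log2 7 leaves fewer members to call. With that filter the counts were 2, 3 and 6 for HB4a with doxorubicin, C5.2 with rapamycin and SKBR3 with rapamycin, 0 for C5.2 with doxorubicin, 2, 3 and 7 with both drugs and 1, 3 and 5 for combined against doxorubicin (HB4a, C5.2, SKBR3), 4, 12 and 13 for the lines in vehicle (C5.2 against HB4a, SKBR3 against HB4a, SKBR3 against C5.2), 0, 1 and 2 for SKBR3 minus HB4a (responses to doxorubicin, rapamycin, both) and 0 and 2 for SKBR3 minus C5.2 (rapamycin, both). With no filter they were 1 and 5 for combined against doxorubicin in HB4a and C5.2, and 1 for the rapamycin response of SKBR3 minus HB4a.

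With the mean of all probe sets the counts were 2 and 1 in HB4a (doxorubicin, rapamycin), 0 and 5 in C5.2 (doxorubicin, both), 3 and 4 in SKBR3 (rapamycin, both), 0, 5 and 4 for combined against doxorubicin, 7, 13 and 15 for the lines in vehicle, 1 for the rapamycin response of SKBR3 minus HB4a, and 1 and 2 for SKBR3 minus C5.2 (doxorubicin, both). Where other bright probe sets of a gene existed, 30 of 30 pairs of a called treatment difference and another probe set, in 9 genes, had the same sign. The calls of ACLY and MYLIP enter more than once, each time with another probe set. Sizes on the other probe sets were smaller for some calls and larger for others. Centring on medians gave 0 for C5.2 with doxorubicin and 1 for the rapamycin response of SKBR3 minus HB4a; quantile normalization gave 2 for C5.2 with doxorubicin, 4 for C5.2 combined against doxorubicin and 2 for the rapamycin response of SKBR3 minus C5.2. With no trend, the rapamycin response of SKBR3 minus HB4a and the doxorubicin response of SKBR3 minus C5.2 gave 1 each.

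Blocking on experiment number, the counts (with the share of all genes called) were 8 (16.3%) and 11 (37.4%) in HB4a with rapamycin and with both, 5 (17.4%) and 15 (43.3%) in C5.2 with doxorubicin and with both, 2 (5%) in SKBR3 with doxorubicin, and 9 (15.8%) and 17 (49.6%) for combined against doxorubicin in HB4a and SKBR3. For the responses to doxorubicin, rapamycin and both they were 5 (15.9%), 11 (22.5%) and 11 (31.9%) for SKBR3 minus HB4a and 3 (8.23%), 10 (32.4%) and 11 (38.2%) for SKBR3 minus C5.2, and 2 (10.0%) for C5.2 minus HB4a with both. In some of these comparisons not every pair of same-numbered arrays correlated above 0.1. Residual correlations of pairs ran from -0.54 to 0.89 in HB4a and from -0.10 to 0.75 in C5.2 with both drugs. They ran from -0.36 to 0.92 for HB4a combined against doxorubicin. For SKBR3 in vehicle they ran from -0.12 to 0.53 against HB4a and from -0.06 to 0.68 against C5.2. Why pairs differed in this was not tested. No called member lost its call with the block. Without SKBR3 vehicle array 3 the rapamycin response of SKBR3 minus C5.2 gave 2. Without the arrays left out together, HB4a with both drugs gave 11, C5.2 with doxorubicin 3, the rapamycin response of SKBR3 minus HB4a 1, and those of SKBR3 minus C5.2 to doxorubicin and rapamycin 1 and 3.

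Leaving out 1 array at a time, the ranges were 3 to 5 in HB4a with doxorubicin, 1 to 4 with rapamycin and 6 to 8 with both; 0 to 2, 8 to 10 and 8 to 10 in C5.2; 9 to 10 in SKBR3 with rapamycin and 10 to 13 with both; 0 to 1, 5 to 8 and 6 to 10 for combined against doxorubicin in HB4a, C5.2 and SKBR3. For the responses they were 1 to 2 and 4 to 6 for SKBR3 minus HB4a (rapamycin, both) and 0 to 1, 0 to 3 and 4 to 7 for SKBR3 minus C5.2 (doxorubicin, rapamycin, both). The count of 0 there for doxorubicin was 1 without C5.2 doxorubicin array 2 or SKBR3 doxorubicin array 1. Low signal limits the rest: 8 of the 36 genes were under the filter in every line.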

Other observations

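Levels of HMGCS1 and FADS2, members under the filter, also differed between lines in vehicle. With no filter, HMGCS1, which makes the precursor of mevalonate, was higher in SKBR3 than in C5.2 by 1.92 ± 0.26 (adjusted p = 2.52e-08); in HB4a it averaged 1.86, with 1 of 5 arrays at or under its array's median, so no difference from that line is given. The desaturase FADS2 in SKBR3 differed from HB4a by -1.35 ± 0.14 (adjusted p = 9.49e-11) and from C5.2 by -2.15 ± 0.17 (adjusted p = 1.17e-14). These are limma values over all genes without the filter, at signals where the array compresses differences.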
